A study of Mus musculus with 4 samples.

Results

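The H3K14ac regions found in both non-target control and Nap1l2 knockdown cells were characterized. H3K14ac, the acetylated form of lysine 14 on histone H3, had been profiled by ChIP-seq (sequencing of DNA that an antibody pulls down with chromatin) in C3H10T1/2, an embryonic mouse line of C3H origin used as a model of mesenchymal stem cells, with 1 ChIP library and 1 input library for each of the 2 conditions. The control cells, named wild type in the sample titles and non-target control in the treatment label, and the knockdown cells, which received lentivirus carrying an shRNA against Nap1l2, were grown in the same serum-containing medium. How many shRNAs, clones or cultures stood behind a library was not given. A region is 1 entry of a deposited peak list, that is, a stretch where ChIP tags exceeded the input of the same cells at a p-value limit of 0.01. A shared pair is a control region and a knockdown region that overlapped by at least 1 bp, and there were 226 such pairs, in lists of 10395 control and 18438 knockdown regions, with 226 members taken from each. The background to every count below is therefore that 2.17% of the control list and 1.23% of the knockdown list were shared. Every shared region had exactly 1 partner. The pairs were selected on the overlap itself, and, with 1 library per condition and no replicates, replicate error is unknown and no test was made. Intervals are exact 95% intervals that cover counting error only, and the regions of a list come from the same library and are not replicates.

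H3K14ac is deposited by acetyltransferases of the GCN5/PCAF and MYST families and removed by deacetylases, and it is usually found together with H3K9ac and H3K27ac at the promoters and enhancers of active genes. NAP1L2 belongs to the nucleosome assembly protein 1 family of histone chaperones, which carry histones and help to assemble and disassemble nucleosomes. In mesenchymal stem cells, the bone lineage is governed by transcription factors such as Runx2 and Sp7, and Bglap encodes osteocalcin, a protein of mature osteoblasts.

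The depth behind the regions was low. The number of tags at each summit, the highest point of a region, was recovered from the deposited fold enrichment and p-value. On average, control and knockdown ChIP pileups reached 2.50 and 2.26 tags per position over genome-wide input backgrounds of 1.51 and 1.27 tags. In the file names the control ChIP library is numbered in a different series from the remaining libraries, and any batch effect and the condition cannot be told apart.

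The sequences of the shared regions are not shown. No shared region overlapped one of the 32851 promoter windows of the RefSeq promoter table (GRCm38.p6, 250 bases before to 50 after a start), so the starts nearest to shared regions are shown to place the regions. A count of 0 among the 220 shared regions on the chromosomes of that table allows a share of up to 1.66% (exact 95% interval), and 44 of 9706 non-shared control regions (0.453%, 95% interval 0.33 to 0.608%) and 60 of 17294 non-shared knockdown regions (0.347%, 0.265 to 0.446%) overlapped such a window. The nearest start of all, that of the predicted gene Gm41440 on chromosome 16, was 114 bp from the shared region at chr16:31029074-31029377. The nearest starts of protein-coding genes were those of Spaca3, which encodes a sperm acrosomal protein, at 359 bp, and Apol9a, an interferon-inducible member of the apolipoprotein L family, at 463 bp. The 250 bases before each start are given 5′ to 3′ on the gene strand, with CpG dinucleotides in capitals. They lie at chr16:31029492-31029741 (minus strand), chr11:80858113-80858362 (plus strand) and chr15:77411035-77411284 (minus strand).
Gm41440: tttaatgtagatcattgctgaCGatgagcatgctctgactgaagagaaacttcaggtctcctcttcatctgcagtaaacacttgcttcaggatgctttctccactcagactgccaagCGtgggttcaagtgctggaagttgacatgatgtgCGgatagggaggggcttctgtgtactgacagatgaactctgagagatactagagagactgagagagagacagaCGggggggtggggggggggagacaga
Spaca3: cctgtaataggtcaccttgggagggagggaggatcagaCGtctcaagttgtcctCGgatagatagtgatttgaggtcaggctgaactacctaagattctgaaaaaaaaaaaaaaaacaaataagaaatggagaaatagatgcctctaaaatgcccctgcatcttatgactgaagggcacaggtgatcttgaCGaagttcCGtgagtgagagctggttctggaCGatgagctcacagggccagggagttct
Apol9a: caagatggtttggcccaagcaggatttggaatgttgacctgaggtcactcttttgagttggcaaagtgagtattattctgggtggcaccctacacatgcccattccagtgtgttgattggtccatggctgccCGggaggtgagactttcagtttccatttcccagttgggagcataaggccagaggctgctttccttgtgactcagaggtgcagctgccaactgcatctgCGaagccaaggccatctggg
They held 4, 5 and 2 CpGs, respectively, against a median of 6 (quartiles 2 and 16) over the same 250 bases of all windows. None of the 3 held TATAAA or GGGCGG on either strand, and Apol9a held CCAAT once; these letters were found in 12.4%, 32.7% and 33.8% of all windows, respectively.

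The overlap and the summit distance of the pairs are bounded by the rule that chose them and are given as a description. The overlap had a median of 152 bp (95% interval 134 to 165 bp, range 1 to 405 bp), and in 111 of 226 pairs (49.1%) it covered at least 50% of both regions. The control region lay wholly within its knockdown partner in 35 pairs and the knockdown region within its control partner in 22 pairs, and in 0 pairs were both ends the same. The 2 summits of a pair lay a median of 88.5 bp apart (95% interval 77 to 118 bp, range 0 to 601 bp). They were within 50 bp in 74 pairs (32.7%), within 100 bp in 123 pairs (54.4%) and within 200 bp in 184 pairs (81.4%). The knockdown summit was not displaced in 1 direction along the chromosome, as the signed distance from the control summit had a median of -6.5 bp (95% interval -26 to 3 bp).

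Pairs on either side of the limit were alike in height. The 20 pairs just inside it, with an overlap of 1 to 20 bp, had a median of 13.5 control tags (range 9 to 20) and 12 knockdown tags (range 8 to 25), and their summits were a median of 253 bp apart. The 14 pairs just outside it, with a gap of under 20 bp, had medians of 14 control tags (range 11 to 19) and 13 knockdown tags (range 9 to 25), and a median summit distance of 211 bp. Over all pairs of a control and a knockdown region, whether overlapping or not, 122 pairs had summits less than 100 bp apart, 70 pairs were 100 to 200 bp apart, and 59 pairs were 200 to 300 bp apart. At larger distances the number per 100 bp levelled off, with 36.8 pairs at 500 to 1000 bp, 35.3 pairs at 1 to 2 kb and 33.1 pairs at 2 to 5 kb.

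**Figure D1:**
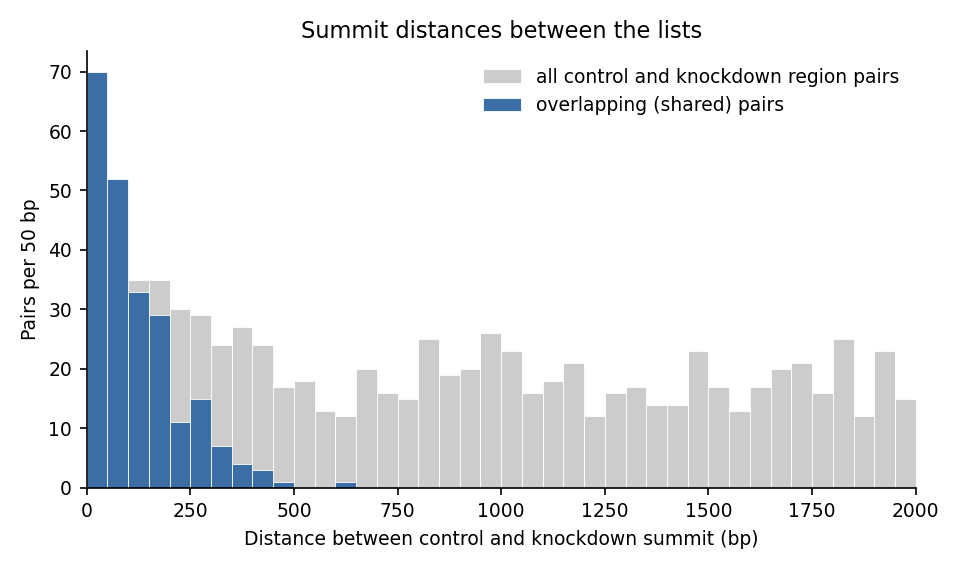
Distance between control and knockdown summits (x axis, bp, in bins of 50 bp) against the number of region pairs per bin; grey bars show all pairs of a control and a knockdown region, and blue bars the 226 overlapping pairs. Pairs were most numerous below 100 bp, where 122 pairs lay, and the overlapping pairs ended at 601 bp.

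A region with more tags is more likely to be listed in both lists, so tags enter the choice of members. Tags at the summit were somewhat more numerous in shared than in non-shared regions. The median was 14 tags in both libraries (95% interval 13 to 14 tags in each), with ranges of 9 to 50 tags in the control and 8 to 37 tags in the knockdown, beside medians of 13 and 12 tags in the non-shared regions. The knockdown region had more tags in 102 pairs, the control region in 101 pairs, and 23 pairs were equal. The knockdown region had at least 2 times the tags of its partner in 4 pairs, and at most 0.5 times in 1 pair. Dividing the tags by the mean pileup of their own library raises every ratio of knockdown to control by 1.11 times, and the median ratio was then also 1.11 (95% interval 1.03 to 1.19, range 0.527 to 2.62). Over the 226 pairs, which share their libraries, Pearson's r of the tags was 0.489 and Spearman's rho 0.309. The input background of the partners gave similar values, 0.534 and 0.335. For width, the corresponding values were -0.0238 and 0.00038, so that the widths of partners did not vary together.

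**Figure D2:**
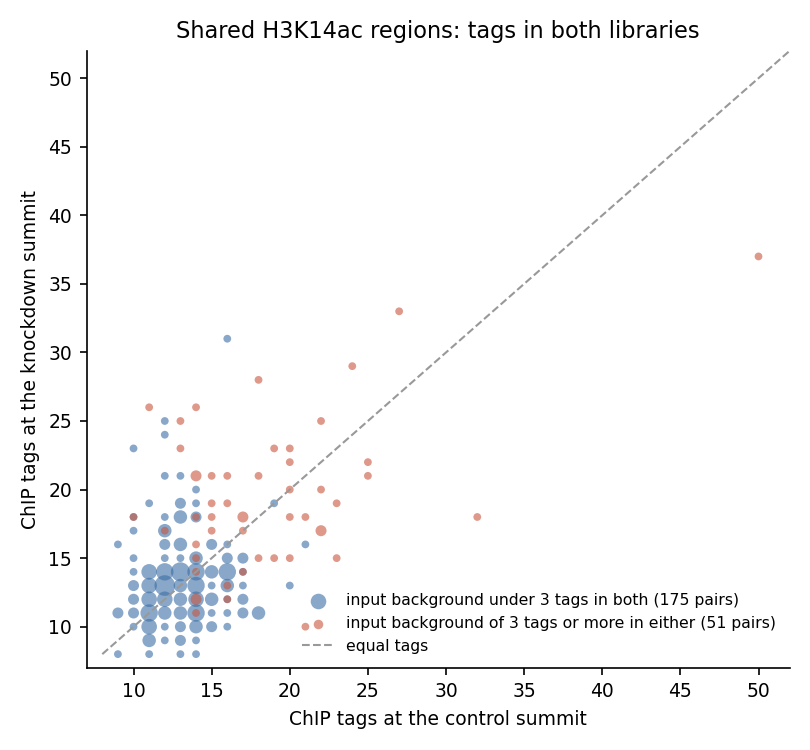
ChIP tags at the control summit (x axis) against ChIP tags at the knockdown summit (y axis) for the 226 shared pairs; point area is proportional to the number of pairs at a position, red points are pairs with an input background of 3 tags or more in either library, and the dashed line marks equal tags. Most pairs lie below 20 tags in both libraries, and the pair with the most tags had 50 in the control and 37 in the knockdown.

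The difference was larger in the upper tail. In the control, 21 of 226 shared regions (9.29%, 95% interval 5.84 to 13.9%) had 20 or more tags, compared with 196 of 10169 non-shared regions (1.93%, 1.67 to 2.21%), and in the knockdown the shares were 12.4% (8.39 to 17.4%) and 2.73% (2.5 to 2.98%). The fold enrichment over input was not higher, with medians of 3.14 and 3.28 in the shared and non-shared control regions and 3.17 in both classes of knockdown regions. The median −log10 p was 3.62 in the shared and 3.74 in the non-shared control regions, and 3.47 and 3.44 in the knockdown. Of all control regions 1.08%, and of all knockdown regions 2.01%, passed a q-value of 0.05 (−log10 q of 1.3 or more). It was passed by 6 shared control regions (2.65%, 95% interval 0.98 to 5.69%) and 17 shared knockdown regions (7.52%, 4.44 to 11.8%), and in 1 pair by both.

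The input background moved with these tags, and where it is raised more tags are needed to pass the p-value limit. Its local value was above the genome-wide level of the library at 50.2% of all control and 32.9% of all knockdown regions. Among the shared regions it did so at 155 of 226 (68.6%, 95% interval 62.1 to 74.6%) in the control and 139 of 226 (61.5%, 54.8 to 67.9%) in the knockdown, compared with 49.8% and 32.6% of the non-shared regions. Both partners had a raised background in 107 pairs, the control partner alone in 48, the knockdown partner alone in 32, and neither in 39. Of control regions with 3 to 5 tags of background, 34 of 415 were shared (8.19%, 5.74 to 11.3%), compared with 71 of 5176 (1.37%, 1.07 to 1.73%) at the genome-wide level, and in the knockdown the shares were 6.11% (4.06 to 8.76%) and 0.704% (0.564 to 0.867%). When regions with 3 or more tags of background were left out, 4 of 189 shared control regions had 20 or more tags (2.12%, 0.58 to 5.33%), beside 1.11% of the non-shared, so that the intervals overlapped, whereas in the knockdown 6.6% (3.56 to 11%) remained beside 1.65% (1.46 to 1.84%). The part of copy number, mappability or repeats in these backgrounds was not tested.

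**Figure D3:**
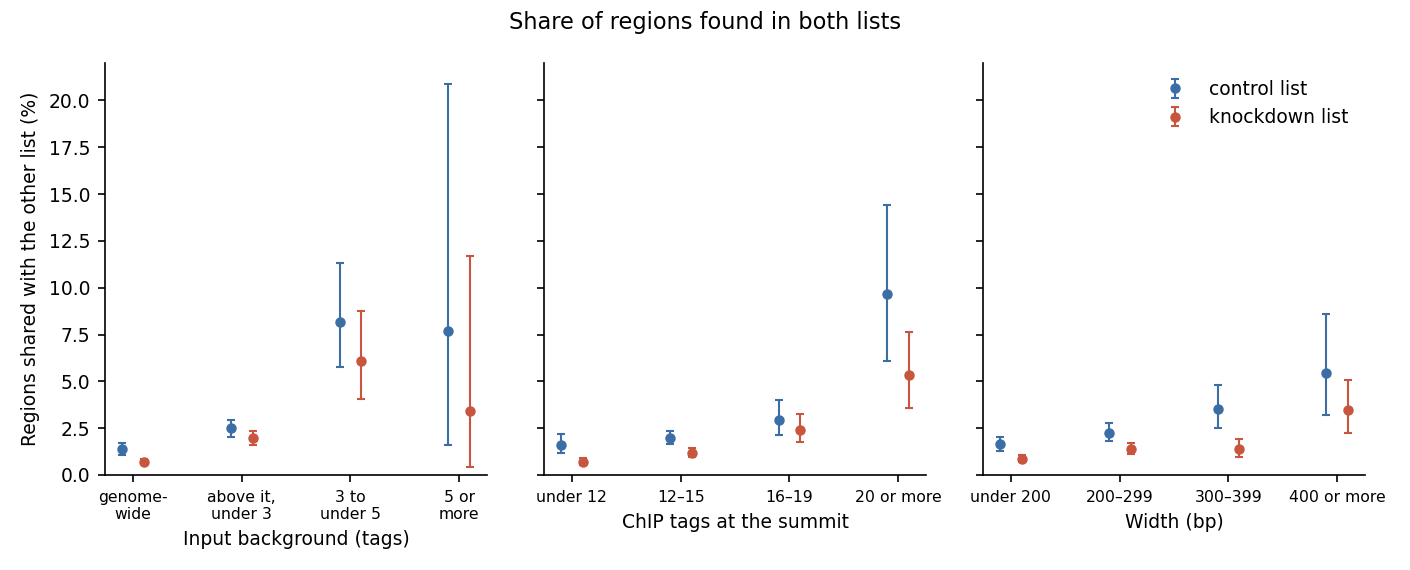
Share of regions with a partner in the other list (y axis, %) by input background, ChIP tags at the summit and width, for the control list (blue) and the knockdown list (red); points are shares and bars exact 95% intervals. The share was 1.37% of control and 0.704% of knockdown regions at the genome-wide background and 8.19% and 6.11% at 3 to 5 tags of background.

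Shared regions were wider. Their median width was 228 bp (95% interval 216 to 244 bp) in the control and 230 bp (219 to 239 bp) in the knockdown, beside 200 bp and 205 bp in the non-shared regions, and 24.8% and 25.7% of them reached 300 bp, beside 13.4% and 17.0%. Width enters the choice of members, since a wider region can reach a partner farther away. Leaving out regions with 3 or more tags of background gave 23.3% (17.5 to 30%) and 24.9% (19 to 31.5%) of shared regions that reached 300 bp, beside 13.3% and 16.7%.

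The tallest pair lay on the X chromosome, 58.2 kb from Asmt, which encodes the last enzyme of melatonin synthesis. Its control region at chrX:170736231-170736497 had 50 tags and its knockdown region at chrX:170736252-170736481 had 37 tags, with summits 3 bp apart. It was named after its values were seen, for its background, which was 10 tags in both libraries, the highest of all pairs. A second pair, 135 kb from Asmt, had control and knockdown regions at chrX:170813065-170813241 and chrX:170813019-170813266. It had 25 control and 22 knockdown tags over backgrounds of 3 and 1.27 tags, with a −log10 p of 6.91 and 8.94. It was the strongest pair by the lower of its 2 p-values and the pair with a −log10 q of at least 1.3 in both lists, at 1.40 and 2.92.

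The next strongest pairs by the same measure lay mostly outside protein-coding genes, as did the pairs in general, of which 37.6% lay in one. The pair on chromosome 18, 128 kb from Nrep, a gene of neuronal regeneration, had 15 and 16 tags, both at the genome-wide background. The pair at chr4:3234804-3235096 (control region), 34.5 kb from the predicted gene Gm52720, had 22 and 17 tags. A pair at chr8:119309450-119309753 lay within Cdh13, which encodes T-cadherin, and had 21 control and 18 knockdown tags with a −log10 p of 4.79 and 6.75. A pair at chr15:75057789-75058034, 8.87 kb from Ly6c1, a lymphocyte antigen 6 gene, had 22 and 25 tags over backgrounds of 3 and 4 tags. Near Cdh18, which encodes a classical cadherin, a pair 170 kb away at chr15:22378577-22378820 had 14 and 15 tags. The remaining pairs of the 10 strongest were nearest to Klf10 (a TGF-beta-inducible transcription factor, 88.2 kb, 14 and 26 tags), Lama4 (14 and 19 tags), Ano5 (a membrane protein of muscle and bone, 182 kb, 16 and 15 tags) and Gabrp (a GABA receptor subunit, 14.2 kb, 16 and 16 tags). The pair near Gabrp was tied for the last place, at a lower −log10 p of 4.33, with a pair in Mpped1 (21 and 16 tags) and the pair near Pnpla5 described with the gene ends (16 and 31 tags). With both tied pairs included, tags ranged from 14 to 25 in the control and from 15 to 31 in the knockdown.

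The pairs at the extremes of overlap and of summit distance were examined next. The largest overlap, of 405 bp, was at chr11:20378773-20379201, 46.1 kb from Slc1a4, a neutral amino acid transporter gene, with 24 and 29 tags. The pair at chr12:104130907-104131306, with 400 bp, lay in the serine protease inhibitor gene Serpina3b and had 12 and 16 tags. Overlaps of 358, 350 and 325 bp were found 5.62 kb from LOC108168956, within Ncald and within Prickle1, a gene of planar cell polarity. At the other extreme, the largest summit distances were 601 bp near Zc3hc1, 484 bp near the olfactory receptor gene Olfr1431, 445 bp near Hsf2, 425 bp near Col2a1 and 417 bp near Eipr1. These 5 pairs overlapped by 59, 11, 39, 4 and 20 bp, respectively. The pair near Col2a1, which encodes the main collagen of cartilage, was 16.5 kb from the gene and had 12 tags in each library.

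Shared regions were found on 18 of the 20 chromosomes. Chromosome 15 held 37 of them (16.4%, 95% interval 11.8 to 21.9%), compared with 14.1% of the non-shared control regions and 9.14% of the non-shared knockdown regions, and chromosomes 8, 6, 16, 10 and 11 followed with 22, 19, 18, 16 and 16. Chromosome 3, with 150 control and 462 knockdown regions, and chromosome 9, with 230 and 557, held 0 shared regions, where the exact 95% intervals allow shares of the control regions of up to 2.43% and 1.59%, respectively. The 2.17% of the whole control list lies within the first of these limits and above the second. For the knockdown regions the limits were 0.795% and 0.66%, both below the 1.23% of the whole knockdown list. Relative to their own lists, chromosomes 7 and 16 had the largest shares in the control, at 3.69% (1.98 to 6.23%) and 3.65% (2.18 to 5.71%), and chromosome 15 in the knockdown, at 2.17% (1.54 to 2.98%). Chromosome 17 had the smallest share above 0 in the control, at 1.11% (0.449 to 2.28%). The interval of each of these control shares included the 2.17% of the whole list or, for chromosome 16, began just above it at 2.18%. The interval of chromosome 15 in the knockdown lay above the 1.23% of the whole knockdown list. A knockdown region can have a partner only where the control list holds regions. The control list held 1468 regions over 101 Mb on chromosome 15, 150 over 157 Mb on chromosome 3 and 230 over 121 Mb on chromosome 9. The part of this density in the shares was not tested.

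On chromosome 15, 11 of the 37 shared regions lay between 80 and 90 Mb and 7 between 30 and 40 Mb, while 0 lay between 10 and 20 Mb or between 40 and 50 Mb. The 80 to 90 Mb stretch held 236 control and 218 knockdown regions in all, and the 30 to 40 Mb stretch 170 and 193. The stretches with 0 held fewer, 97 and 85 at 10 to 20 Mb and 66 and 99 at 40 to 50 Mb. The input background was raised at 83.8% (68.0 to 93.8%) of the shared control regions of this chromosome. The non-shared ones were close, at 77.5% (75.2 to 79.6%). In the knockdown it was raised at 86.5% (71.2 to 95.5%) of shared and 61.5% (59.1 to 63.8%) of non-shared regions of the chromosome. Without chromosome 15 it was raised at 65.6% (58.4 to 72.4%) of shared and 45.3% of non-shared control regions and at 56.6% (49.2 to 63.8%) and 29.7% in the knockdown. Of the 39 pairs at the genome-wide background in both libraries, 1 lay on chromosome 15 (2.56%, 0.0649 to 13.5%). Most regions of this chromosome, shared or not, had a raised background and were therefore outside this class. The share of chromosome 15 among all regions at the genome-wide background was not computed. Along all chromosomes, 12 neighbouring shared regions started within 100 kb of each other and 5 within 20 kb. The nearest region of the same list was a median of 31.5 kb away from a shared control region (95% interval 20.6 to 41.3 kb) and 42.1 kb from a non-shared one, and 18.3 kb (13.6 to 23.7 kb) and 31.1 kb in the knockdown.

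**Figure D4:**
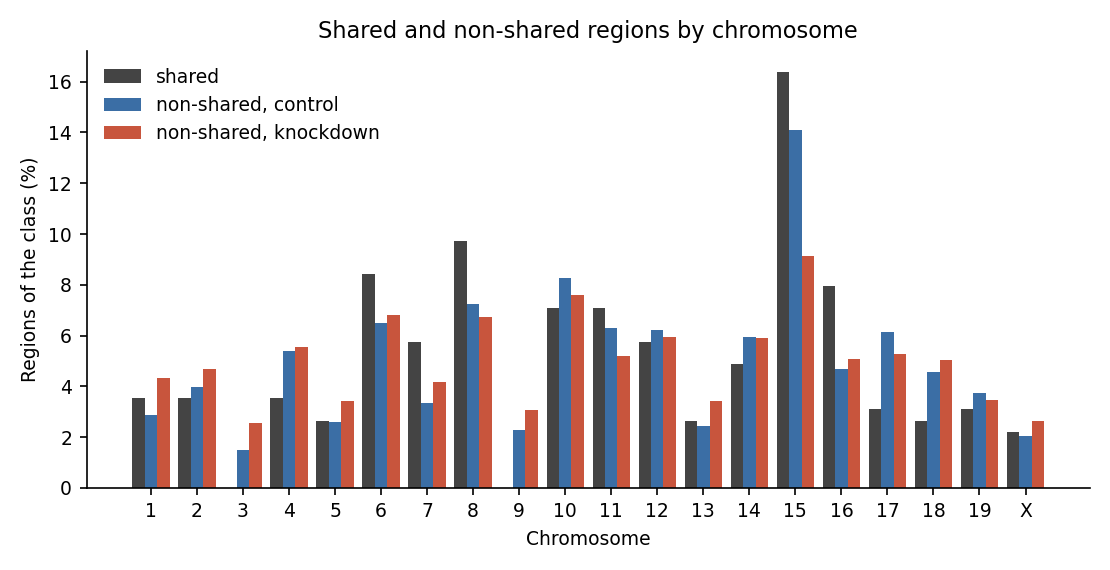
Percentage of the shared regions (grey), non-shared control regions (blue) and non-shared knockdown regions (red) that lay on each chromosome (x axis). Chromosome 15 held 16.4% of the shared regions, and chromosomes 3 and 9 held none of them.

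The body of a protein-coding gene held no larger share of shared than of non-shared regions. Of all control regions 44.4%, and of all knockdown regions 41.2%, touched the body of one of 21631 protein-coding genes of the RefSeq annotation (GRCm38.p6). Among shared regions this was the case for 85 of 226 in each list (37.6%, 95% interval 31.3 to 44.3%), beside 44.6% (43.6 to 45.6%) and 41.2% (40.5 to 42.0%) of the non-shared regions. With genes of any biotype, 112 shared regions of each list (49.6%, 42.9 to 56.3%) lay in a gene body. The non-shared shares were 54.4% (53.4 to 55.3%) in the control and 51.1% (50.4 to 51.9%) in the knockdown. Since the gene table lists gene extents alone, exons and introns could not be separated. The nearest protein-coding gene was a median of 6.24 kb away from a shared control region (95% interval 2.18 to 13.2 kb), beside 4.43 kb for the non-shared, and 6.11 kb (2.33 to 13 kb) beside 9.58 kb in the knockdown. Fewer shared knockdown regions lay more than 100 kb from any such gene, at 14.2% (9.89 to 19.4%) compared with 22.5% (21.9 to 23.1%), whereas the control shares were 14.6% (10.3 to 19.9%) and 18.4%. The 226 pairs had 213 different nearest genes. For 13 pairs (5.75%, 3.1 to 9.64%) it was a predicted gene, beside 5.07% of the non-shared control and 4.65% of the non-shared knockdown regions.

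The 85 pairs in gene bodies lay in 78 genes, and 5 of these genes held more than 1 pair. Shank2, a postsynaptic scaffold gene, held 3 pairs, with 11, 12 and 11 control tags and 10, 12 and 26 knockdown tags. Ncald, which encodes the calcium sensor neurocalcin delta, also held 3 pairs, with 13, 15 and 18 control tags and 15, 11 and 28 knockdown tags. Cdh13 held 2 pairs, with 12 and 21 control tags and 24 and 18 knockdown tags, the tumour suppressor gene Fhit held 2 pairs with 10 and 17 and with 13 and 14 tags, and Ccdc60, a coiled-coil gene, held 2 with 15 and 12 and with 14 and 14 tags. All regions together, the shared ones included, numbered 16 control and 14 knockdown regions in Shank2 over 448 kb, in Ncald 13 and 17 over 426 kb, in Cdh13 12 and 25 over 1185 kb, in Fhit 16 and 26 over 1612 kb, and in Ccdc60 4 and 3 over 163 kb.

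The ends of protein-coding genes were reached by few shared regions. Within 2 kb of either end lay 15 shared control regions (6.64%, 95% interval 3.76 to 10.7%) and 14 shared knockdown regions (6.19%, 3.43 to 10.2%), beside 5.85% of all control and 5.15% of all knockdown regions. The 15 pairs were each near 1 gene, and the annotated start could be set against the far end for 11 of the genes. The region was nearer to the start in 4, namely Spaca3, Apol9a, Apol11b and Mas1, and nearer to the far end in 7, namely Amer3, Olfr530, Vmn2r80, A4galt, Pnpla5, Wnt10b and Eaf2. For Rims4, Sytl2, Lama4 and Gm5662 this was not told.

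The pair at Spaca3, whose start is shown above, had 13 control and 19 knockdown tags. The pair inside Apol9a had 19 and 23 tags, with a −log10 p of 4.15 and 8.16. A second gene of the same family, Apol11b, had a pair 1198 bp before its start at chr15:77644484-77644685 with 25 and 21 tags, and here the −log10 p was higher in the control (8.80) than in the knockdown (3.04), over backgrounds of 2.18 and 4 tags. The pair before Mas1, the gene of an angiotensin-(1-7) receptor, had 13 and 10 tags and was 1938 bp from the start.

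Of the pairs at far ends, the one 1441 bp beyond Pnpla5, a lipid hydrolase gene, differed most between the libraries, with 16 control and 31 knockdown tags and a −log10 p of 4.33 and 12.6. The pair beyond Eaf2, which encodes a factor of transcription elongation, had 20 control and 13 knockdown tags. The pair in Wnt10b, which encodes a secreted Wnt ligand that promotes bone formation, lay at chr15:98771956-98772355, within the gene, 1244 bp from its far end and 5795 bp from its start, with 12 control and 13 knockdown tags. The pairs beyond A4galt (a glycosphingolipid galactosyltransferase), Amer3 (a regulator of Wnt signalling), Olfr530 and Vmn2r80 (an olfactory and a vomeronasal receptor) had 10 to 14 control and 11 to 13 knockdown tags. For the genes without a told start, Lama4, which encodes a laminin chain of vascular basement membrane, had 14 and 19 tags, Rims4 and Sytl2, both linked to vesicle exocytosis, had 12 and 13 and 14 and 11 tags, and the predicted gene Gm5662 had 23 and 15 tags.

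Over all 21631 protein-coding genes, 78 (0.361%) held a shared region in the body and 213 (0.985%) were the nearest gene of a pair, so that lists of about 20 genes could be reached by few or none. None of the genes of the lists that were looked up held a shared region, had an end within 2 kb of one, or was nearest to one. This held for 0 of 20 osteogenic genes, 0 of 20 senescence genes, 0 of 24 genes of H3K14 acetylation and NAP1 chaperones, 0 of 14 mesenchymal markers and 0 of 16 housekeeping genes. The control list reached the bodies of 12.2% of all protein-coding genes and the knockdown list those of 17.2%, with regions of any kind. Among the listed genes they lay in 2 (control) and 4 (knockdown) osteogenic genes, 0 and 3 senescence genes, 1 and 3 genes of H3K14 acetylation and NAP1 chaperones, 3 and 3 mesenchymal markers, and 0 and 0 housekeeping genes. The shared region nearest to Sp7 was 1173 kb away, that nearest to Runx2 8022 kb away, and that nearest to Nap1l2 44428 kb away, while Bglap lies on chromosome 3, where no region was shared. The listed gene closest to a shared region was Atf4, a transcription factor of osteoblast amino acid metabolism, 53.9 kb from chr15:80311447-80311721 with 20 control and 23 knockdown tags.

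**Figure D5:**
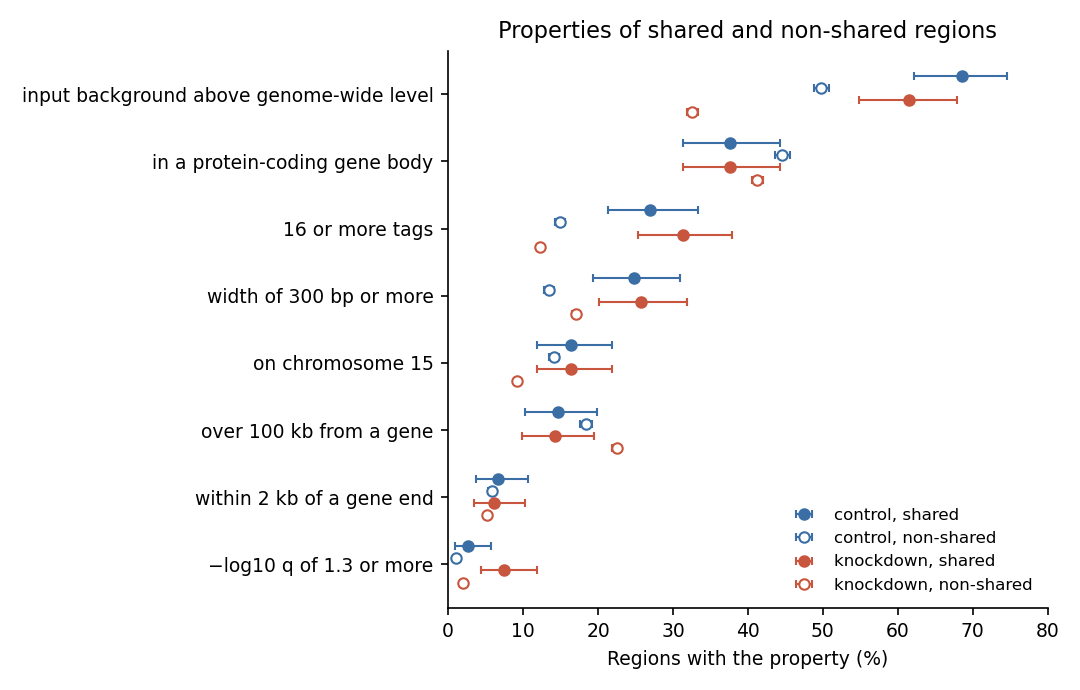
Percentage of regions with each property (x axis) for shared (filled) and non-shared (open) regions of the control (blue) and knockdown (red) lists; bars are exact 95% intervals. Input background, tags and width were higher among shared regions in both lists, whereas the shares within 2 kb of a gene end, 6.64% and 6.19% of shared regions, were close to those of the non-shared regions.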

How the data were processed

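H3K14ac ChIP and input DNA of C3H10T1/2 cells carrying a non-target control or a Nap1l2 knockdown were sequenced, with 1 library per group. The submitters' processing notes name BWA 0.7.13, Picard 1.126, MACS2 2.1.0 and the build mm10, and the file names state duplicate removal and a p-value limit of 0.01. Peaks were called per library, so that presence depends on the depth of that library. The deposited ratio is the fold enrichment of ChIP pileup over local input at the summit; p-values and q-values were deposited as −log10; and the deposited score repeats the p-value. Other deposited columns hold positions, which were counted from 1 here.

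The whole number of tags and the background of each entry were solved from fold enrichment and p-value (100% of both lists). The solving was tested on entries simulated from the solved values under the same formulas. That checks the code and not whether the tags match the sequenced libraries. Overlaps, Clopper-Pearson intervals for shares and order-statistic intervals for medians were computed with Python 3.11.15, numpy 2.4.6, pandas 2.3.3 and SciPy 1.17.1. Tags are PCR products without molecular identifiers. mm10 equals GRCm38, whose RefSeq gene table gave gene bodies and ends; 17274 of 21631 protein-coding genes (79.9%) were matched to the promoter table, which follows the C57BL/6J genome and not C3H, and was not used for chromosome 18. The members and gene lists were chosen with earlier results of these data known. Genes were named by a rule: the 10 pairs with the highest lower −log10 p, the 5 with the most overlapping bases, the 5 with the largest summit distance, all pairs within 2 kb of a gene end, genes holding 2 or more pairs, listed genes, and pairs with a −log10 q of at least 1.3 in both. Input libraries entered through the deposited values alone.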

Additional observations from a re-analysis of the deposited data

How the results depend on the processing

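No paired analysis was possible because only 1 library stood behind a group, and for the same reason no replicate could be left out. Depth, a median of 14 tags per summit, limits every value. Of 88 recomputed values, 57 stayed within the interval of the reported value (counts within 1.5 times) and 31 did not. The number of shared regions, 226 as reported, was 111 when at least 50% of both regions had to overlap, 592 control regions within 1 kb, 98 for a −log10 p of at least 3, 1 for a −log10 q of at least 1.3, 137 for equal numbers of entries, 39 at the genome-wide background and 147 for at least 12 tags. In the same order up to the background, the shared percentage of the control list was 1.07, 5.7, 1.23, 0.893, 1.32 and 0.753, and 1.76 with a background under 3 tags. For the knockdown list it was 0.602, 3.23, 0.82, 0.27 and 0.315 under these settings without equal numbers, and 0.976 with a background under 3 tags. The median summit distance was 52 bp for the 50% overlap and 411 bp within 1 kb. At the genome-wide background the chromosome 15 share was 2.56% and the gene-body share 28.2% in both lists, over 39 pairs. The gene-end share was 2.21% with a window of 1 kb and 14.2% with 5 kb in both lists, and 2.27% in the control and 1.82% in the knockdown for annotated starts. Counting every start of the promoter table, 5.0% (2.52 to 8.77%) of shared control and 4.55% (2.2 to 8.2%) of shared knockdown regions lay within 2 kb. The non-shared shares by this count were close, at 5.29% in the control and 4.53% in the knockdown. The settings change the number of regions, the window or, for annotated starts, the gene ends and genes that count. The causes of the shifts, those at low background included, were not tested. With 1 pair left at the q-value limit, shares and medians of its pairs were not computed. The settings of 12 tags, of a background under 3 tags and of annotated starts were chosen after seeing the data.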

Other observations

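The share of regions with a partner showed no steady rise with the strength of the p-value. In the control list it was 2.93% (72 of 2458, 95% interval 2.3 to 3.67%) at a −log10 p of 2 to 3, 1.5% (1.17 to 1.88%) at 3 to 4, 2.73% (2.0 to 3.63%) at 4 to 5, 2.29% (1.49 to 3.36%) at 5 to 6 and 3.16% (1.64 to 5.45%) at 6 or more. In the knockdown list it was 1.09%, 1.07%, 1.39%, 1.06% and 2.71% (1.78 to 3.94%) in the same classes. Of 108 control regions with 18 or more tags at the genome-wide background, 0 had a partner, which the exact 95% interval limits to 3.36%. This interval includes the 1.37% shared among all control regions at that background (71 of 5176). With 18 or more tags over a raised background, 30 of 426 control regions had a partner (7.04%, 4.8 to 9.9%). In the knockdown the corresponding numbers were 6 of 176 (3.41%, 1.26 to 7.27%) and 45 of 853 (5.28%, 3.87 to 7.0%), where the intervals overlapped. These classes were formed after the values were seen, and the differences were not tested.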
